A study of Homo sapiens with 18 samples.

Results

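The 31 genes described here encode enzymes of glycolysis, of pyruvate use and of the pentose phosphate pathway, with the kinases that set these routes. They were taken by gene name from a list chosen with earlier results of these data known. All 31 were found among the 57500 genes measured. Poly-A RNA was sequenced from established human lines of non-small cell lung cancer, namely SNU2535, NCI-H3122 as well as NCI-H2228, all with the genotype label WT. Each line received 3 µM TRI-611 or DMSO, the solvent control, for 3 h, giving 6 groups of 3 libraries. The series title calls TRI-611 a molecular glue that degrades ALK, a receptor tyrosine kinase, and the lines are known for EML4-ALK fusions. Whether replicate libraries are separate cultures is not in the labels, and p-values therefore describe the spread among libraries, which could be technical.

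Glycolysis converts glucose to pyruvate. Hexokinase traps glucose in the cell as glucose 6-phosphate, phosphofructokinase commits it to breakdown, and the later enzymes yield ATP, NADH and pyruvate. Pyruvate is then reduced to lactate by lactate dehydrogenase or oxidised in mitochondria by pyruvate dehydrogenase, which its kinases switch off and its phosphatases switch on. The pentose phosphate pathway branches off at glucose 6-phosphate and supplies NADPH and ribose 5-phosphate. Growth factor signalling and the transcription factors MYC, HIF-1 and NRF2 are known to regulate many of these genes in tumour cells.

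Values are TPM, transcript abundances scaled for transcript length and to a fixed sum in each library. A log2 change is TRI-611 minus DMSO on the log2(TPM + 1) scale, with limma's standard error (SE). Calls required an adjusted p below 0.05, adjusted over all genes tested in the comparison. Where values of all 3 lines stand together, the order is SNU2535 first, NCI-H3122 next and NCI-H2228 last. The 31 genes together held between 1.59% and 2.42% of the TPM of a library, and GAPDH alone made up 29.04% to 37.0% of that. Transcripts of the mitochondrial genome took 7.59% to 15.0% of TPM.

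All 5 epithelial markers were present in every group, though CDH1 was low in NCI-H2228 (6.19 ± 0.270 TPM with TRI-611 and 5.65 ± 0.0778 TPM with DMSO). The lung marker NKX2-1 was present in every line, while NAPSA and SFTPB were near 0 in NCI-H3122 (means of 0.118 and 0.0742 TPM with TRI-611). Summed lung markers were higher with TRI-611, at 1365 to 1408 TPM against 1143 to 1254 TPM with DMSO in SNU2535, 244 to 279 against 121 to 141 TPM in NCI-H3122, and 195 to 217 against 138 to 146 TPM in NCI-H2228. Not every lung marker was called. By limma 2 of 4 tested were higher in SNU2535, 2 of 2 in NCI-H3122 and 1 of 4 in NCI-H2228, and 0 were lower. Summed epithelial markers were lower, at 5848 to 6179 TPM with TRI-611 against 6579 to 6811 TPM with DMSO, 5869 to 6462 against 7341 to 7612 TPM, and 2233 to 2296 against 2527 to 2659 TPM, with the lines in that order. The lower epithelial sum did not hold for every marker. All 5 were tested by limma in each line. For SNU2535, 2 were called higher and 3 lower. NCI-H3122 had 1 called higher and 3 lower, while NCI-H2228 had 0 higher and 2 lower. The part of the lung and epithelial markers in the results was not tested.

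Markers of other cell types were measured as well. The 3 fibroblast markers summed to 140.1 to 164 TPM with TRI-611 against 131 to 140.1 TPM with DMSO in SNU2535, 11.9 to 14.1 TPM with TRI-611 against 10.8 to 13.2 TPM with DMSO in NCI-H3122 and 361 to 372 TPM with TRI-611 against 370.0 to 393 TPM with DMSO in NCI-H2228. Nearly all of that was COL1A1, which averaged 151 ± 12.0 TPM with TRI-611 and 135 ± 4.71 TPM with DMSO in SNU2535 and 368 ± 6.04 TPM with TRI-611 and 379.6 ± 11.9 TPM with DMSO in NCI-H2228 (SD, n = 3 each), while COL3A1 and PDGFRB averaged at most 0.0269 and 0.293 TPM in any group. The 4 blood markers summed to 7.21 to 7.94 TPM with TRI-611 against 6.89 to 8.86 TPM with DMSO, 1.01 to 2.41 TPM with TRI-611 against 2.27 to 3.48 TPM with DMSO, and 9.16 to 9.45 TPM with TRI-611 against 8.16 to 8.80 TPM with DMSO. Most of that was CD14, and PTPRC, which defines blood cells, averaged at most 0.0887 TPM. The 3 endothelial markers summed to 10.5 to 11.7 TPM with TRI-611 against 11.5 to 12.1 TPM with DMSO, 3.18 to 4.15 TPM with TRI-611 against 2.27 to 2.70 TPM with DMSO, and 1.99 to 2.38 TPM with TRI-611 against 2.49 to 2.56 TPM with DMSO. Of these 10 markers, 5 were tested in SNU2535, 4 in NCI-H3122 and 3 in NCI-H2228, and 1 was called by limma, VWF in NCI-H3122 (0.82 ± 0.14, adjusted p = 0.00305 by limma). Their part in the results was not tested.

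After TRI-611, HK2, the inducible hexokinase of tumour cells, fell in all 3 lines, and so did PFKP, the platelet type of phosphofructokinase. HK1 and PFKFB3 fell in SNU2535 and NCI-H2228, and RPIA fell in SNU2535 and NCI-H3122. PDK2, a pyruvate dehydrogenase kinase, rose in SNU2535 and NCI-H3122. The enzymes from aldolase to pyruvate kinase moved by small amounts or did not pass the test. All 31 genes passed the filter on low values in every line.

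In SNU2535, 4 of the 31 were called higher, against a background of 10.7% of 16252 genes, and 5 lower, against 18.1%. In NCI-H3122, 5 were higher and 5 lower, against 20.6% and 13.4% of 15311 genes. In NCI-H2228, 0 were higher by limma and 5 lower, against 4.80% and 6.40% of 16806 genes. At an unadjusted limma p under 0.05, 1 gene, PDK2, was higher there and 13 were lower. At that threshold 7 were higher and 5 lower in SNU2535, and 8 higher and 5 lower in NCI-H3122. No share of all genes was counted at that threshold, so these counts have no background. The 5 genes called lower at the adjusted p are 16.1% of the list in each line. That is near the background in SNU2535 and NCI-H3122 and above it in NCI-H2228. In NCI-H2228, 2 or 3 were called lower when any 1 library was left out and 2 with no filter. Over all genes, 695 to 831 were lower with 1 library left out, and 630 of 32396 with no filter. The median log2 change of the 31 was 0.02 in SNU2535 against -0.02 over all tested genes, -0.0041 in NCI-H3122 against 0.05, and -0.08 in NCI-H2228 against 0.0094.

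Of the 31 genes, 14 were called in at least 1 line, 17 in none, and 0 in opposite directions. The same count was not made over all genes. In the single lines 28.7%, 34.1% and 11.2% of all tested genes were called in either direction, against 29%, 32.3% and 16.1% of the 31. The counts moved with the fit. In SNU2535, 1 gene was higher without DMSO replicate 1, 2 without TRI-611 replicate 2 and 2 with no filter. Over all genes those counts were 1275 of 15920, 1209 of 15876 and 1245 of 32185. In NCI-H3122, 2 were higher without TRI-611 replicate 2 or DMSO replicate 2 or 3, and 3 lower without DMSO replicate 1 or 2. Over all genes, 2251 of 14901, 2251 of 15040 and 2349 of 14981 were then higher, and 1573 of 15035 and 1728 of 15040 lower. In NCI-H2228, 2 of the 31 were lower without TRI-611 replicate 1, and 3 without any other single library. Over all genes, 695 of 16489 were lower without TRI-611 replicate 1, and 710 to 831 without any other. With the replicate block, the genes called higher numbered 2 in SNU2535, 3 in NCI-H3122 and 1 in NCI-H2228. Over all genes those counts were 1409 of 16252, 2513 of 15311 and 782 of 16806. Median-ratio scaling gave 2 higher and 7 lower in NCI-H3122, and quantile normalization gave 8 and 5. Of all 15311 genes there, 2508 were higher and 3162 lower under the former, and 2887 and 2564 under the latter. Without mitochondrially encoded genes the numbers higher and lower were 6 and 5 for SNU2535, 8 and 5 for NCI-H3122, and 1 and 3 for NCI-H2228. Over all genes they were 1804 and 2852 of 16514, 3839 and 2068 of 15705, and 1162 and 908 of 17143.

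**Figure D1:**
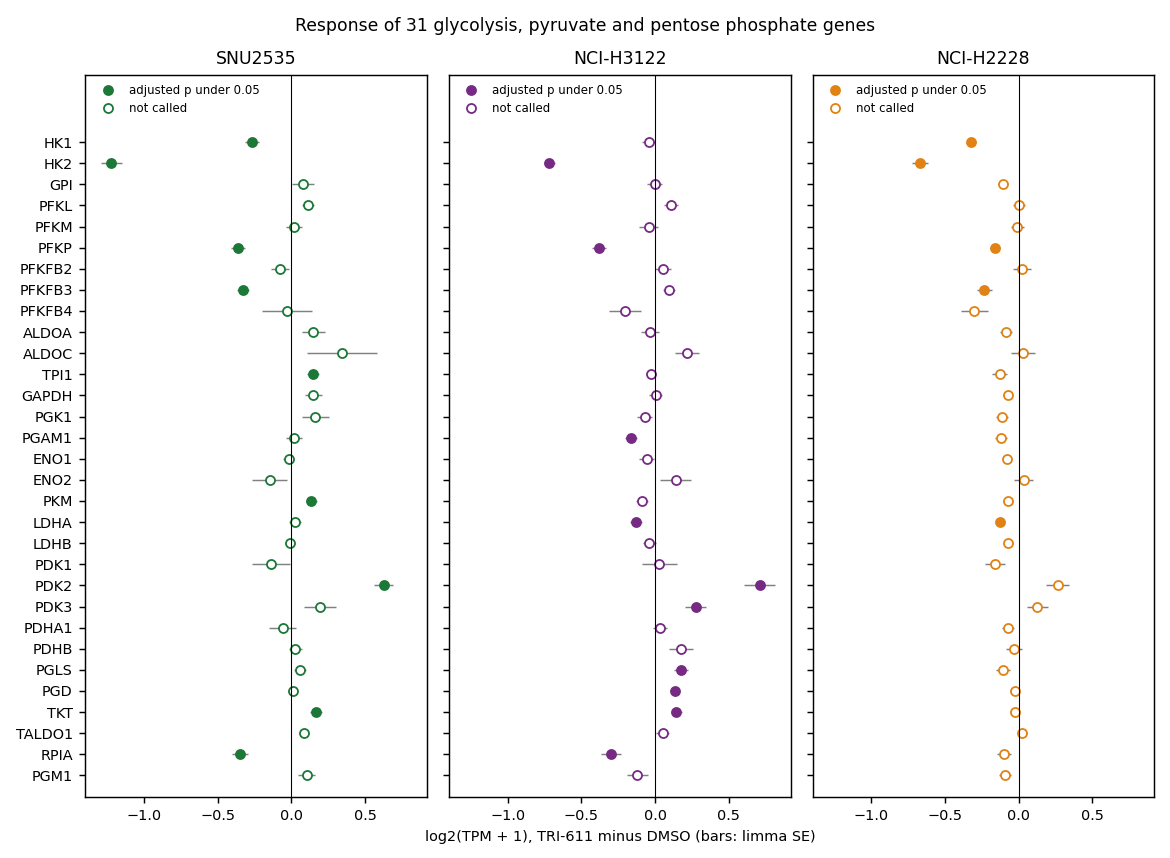
Log2 change of the 31 genes (TRI-611 minus DMSO, log2(TPM + 1) scale) in each line, with bars of 1 limma SE, filled where the adjusted p was under 0.05. HK2 has the most negative change in all 3 lines, at -1.22, -0.72 and -0.67, and PDK2 the most positive, at 0.62, 0.71 and 0.26.

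Because HK2 and PFKP fell in every line and PDK2 rose in SNU2535 and NCI-H3122, their promoters are shown, from 250 bases before to 50 after the RefSeq gene start in GRCh38.p14, all on the plus strand: HK2 at chr2:74833877-74834176, PFKP at chr10:3067720-3068019 and PDK2 at chr17:50094487-50094786. Capitals mark the core of the hypoxia response element, ACGTG, which stands in HK2 as its reverse complement.
HK2: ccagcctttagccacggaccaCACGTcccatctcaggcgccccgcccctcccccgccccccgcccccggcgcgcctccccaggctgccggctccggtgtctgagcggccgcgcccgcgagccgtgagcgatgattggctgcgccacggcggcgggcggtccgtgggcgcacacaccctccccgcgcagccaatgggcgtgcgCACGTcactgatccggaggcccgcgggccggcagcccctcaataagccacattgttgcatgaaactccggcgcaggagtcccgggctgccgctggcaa
PFKP: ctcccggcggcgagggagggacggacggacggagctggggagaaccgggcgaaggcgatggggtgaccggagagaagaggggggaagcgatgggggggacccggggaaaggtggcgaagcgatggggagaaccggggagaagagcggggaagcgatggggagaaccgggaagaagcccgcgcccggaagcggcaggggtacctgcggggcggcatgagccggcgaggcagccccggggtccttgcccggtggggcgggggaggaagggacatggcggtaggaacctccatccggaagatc
PDK2: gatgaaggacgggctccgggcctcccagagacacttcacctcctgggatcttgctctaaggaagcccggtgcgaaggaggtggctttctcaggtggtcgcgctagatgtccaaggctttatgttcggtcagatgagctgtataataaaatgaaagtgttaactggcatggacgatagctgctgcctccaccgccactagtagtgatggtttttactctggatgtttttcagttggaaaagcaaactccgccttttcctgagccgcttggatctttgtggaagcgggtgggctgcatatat

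A total of 4 motifs was searched on both strands in these windows of 300 bases. They were the E-box CACGTG, the hypoxia response element core ACGTG, which lies within every CACGTG, the antioxidant response element core TGACNNNGC and the forkhead motif GTAAACA. RefSeq promoters were found for 30 of the 31 genes, the exception being PFKFB2. HK2 held 2 copies of ACGTG and none of the other 3 motifs, and the windows of PFKP and PDK2 held none of the 4. ACGTG stood in 11 of the 30 windows (36.7%), against 21.4% of all 34943 promoters and 24.8% of those of expressed genes. CACGTG stood in 4 (13.3%), against 7.23% of all promoters, TGACNNNGC in 5 (16.7%), against 13.3%, and GTAAACA in 0, against 3.42%. Copies were counted on both strands, so each CACGTG counts as 2 copies of ACGTG. By that count LDHA held 5 copies of ACGTG, and ALDOC, PDHB and PGK1 held 3 each. LDHA held 2 copies of CACGTG, ALDOC and PDHB 1 each, and PGK1 0. The members' windows were richer in G and C, with a median of 69.2% against 58.7%. A match is a run of letters, not evidence of binding.

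HK2 (chromosome 2, 74833981 to 74893359, plus strand, GRCh38) had 25.6, 25.9 and 21.6 TPM with TRI-611, against 56.4, 59.2 and 58.5 TPM with DMSO in SNU2535. In NCI-H3122 it had 116, 117 and 122 TPM with TRI-611, against 191, 192 and 203 TPM with DMSO. In NCI-H2228 it had 34.9, 36.4 and 36.5 TPM with TRI-611, against 56.9, 54.4 and 62.3 TPM with DMSO. Every TRI-611 library lay below every DMSO library of its line. The TRI-611 mean was 42.0% of the DMSO mean in SNU2535, 60.6% in NCI-H3122 and 62.1% in NCI-H2228. The limma log2 changes were -1.22 ± 0.070, adjusted p = 2.09e-05, then -0.72 ± 0.039, adjusted p = 1.38e-05, and -0.67 ± 0.056, adjusted p = 0.000218 (± SE). They were called under all 14 settings tried in each line. In bulk libraries, fewer cells with a transcript and less of it per cell cannot be told apart.

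HK1, the widely expressed hexokinase that binds mitochondria, had 104, 108 and 97.6 TPM with TRI-611, against 125, 128 and 119.8 TPM with DMSO in SNU2535 (-0.27 ± 0.045, adjusted p = 0.00360 by limma). NCI-H2228 had 137, 136 and 137 TPM with TRI-611, against 173, 168 and 172 TPM with DMSO (-0.32 ± 0.032, adjusted p = 0.000567 by limma). The groups did not overlap in those lines, but did in NCI-H3122, which had 95.2, 93.7 and 87.0 TPM with TRI-611, against 98.4, 93.7 and 92.4 TPM with DMSO (-0.04 ± 0.047, adjusted p = 0.512 by limma).

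The balance of both hexokinases moved with HK2. HK2 made up 19.1% ± 0.888 with TRI-611 and 31.9% ± 0.860 with DMSO of the summed TPM of HK1 and HK2 in SNU2535 (SD, n = 3 each). Its share was 56.3% ± 1.89 with TRI-611 and 67.3% ± 1.37 with DMSO in NCI-H3122. It was 20.8% ± 0.480 with TRI-611 and 25.3% ± 1.13 with DMSO in NCI-H2228. The groups did not overlap in any line. With 3 libraries against 3 an exact permutation test cannot go below p = 0.1, so shares are given without a test.

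Phosphofructokinase is built from the liver type PFKL, the muscle type PFKM and the platelet type PFKP. PFKP (chromosome 10, 3066333 to 3137712, plus strand) had 142, 139 and 131 TPM with TRI-611, against 171, 187 and 173 TPM with DMSO in SNU2535 (-0.36 ± 0.047, adjusted p = 0.00101 by limma). NCI-H3122 had 78.9, 76.1 and 71.2 TPM with TRI-611, against 101, 97.2 and 97.4 TPM with DMSO (-0.38 ± 0.046, adjusted p = 0.000595 by limma). NCI-H2228 had 240.0, 255 and 243 TPM with TRI-611, against 269.9, 273 and 283 TPM with DMSO (-0.16 ± 0.036, adjusted p = 0.0250 by limma). The groups did not overlap in any line. The call in NCI-H2228 was lost without TRI-611 replicate 1 or 3 or DMSO replicate 2 or 3 (adjusted p of 0.0638 to 0.0962) by limma. By the adjusted p of limma it was also lost with no filter (0.0649), under quantile normalization (0.0644) and without mitochondrially encoded genes (0.0524).

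PFKL and PFKM were not called in any line. PFKL had log2 changes of 0.11, 0.11 and 0.00043, and PFKM of 0.01, -0.04 and -0.0093. PFKP held 44.2% ± 0.516 with TRI-611 and 52.3% ± 0.806 with DMSO of phosphofructokinase TPM in SNU2535 (SD, n = 3 each). It held 36.6% ± 0.409 with TRI-611 and 44.7% ± 0.786 with DMSO in NCI-H3122. It held 66.6% ± 0.662 with TRI-611 and 69.1% ± 0.686 with DMSO in NCI-H2228. The share was lower with TRI-611 in every line, without overlap. PFKM overlaps SENP1 on the other strand over 1170 bases at a like level (means of 17.4 and 18.7 TPM), and without a stated strand setting their reads cannot be told apart.

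The PFKFB enzymes make and remove fructose 2,6-bisphosphate, a strong activator of phosphofructokinase, and PFKFB3 is the form that mainly makes it. PFKFB3 had 111, 109 and 107 TPM with TRI-611, against 132, 144 and 135 TPM with DMSO in SNU2535 (-0.33 ± 0.040, adjusted p = 0.000742 by limma). NCI-H2228 had 77.2, 74.6 and 83.1 TPM with TRI-611, against 92.0, 88.5 and 96.1 TPM with DMSO (-0.23 ± 0.051, adjusted p = 0.0231 by limma). NCI-H3122 had 133, 139 and 133 TPM with TRI-611, against 131, 123 and 125 TPM with DMSO and was not called (0.09 ± 0.039, adjusted p = 0.109 by limma). TRI-611 libraries lay below DMSO libraries in SNU2535 and NCI-H2228 and above them in NCI-H3122, each without overlap. The call in NCI-H2228 was lost without TRI-611 replicate 1 or 2 or DMSO replicate 1 or 3 (adjusted p of 0.0597 to 0.0745) by limma, and also with no filter (0.0758).

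PFKFB2 and PFKFB4 were not called in any line, and PFKFB3 held between 78.9% and 86.8% of the TPM of these 3 genes in every library. PFKFB2 overlaps YOD1 on the other strand over 9132 bases, at means of 18.5 and 16.6 TPM, so reads from that shared stretch cannot be told apart either.

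**Figure D2:**
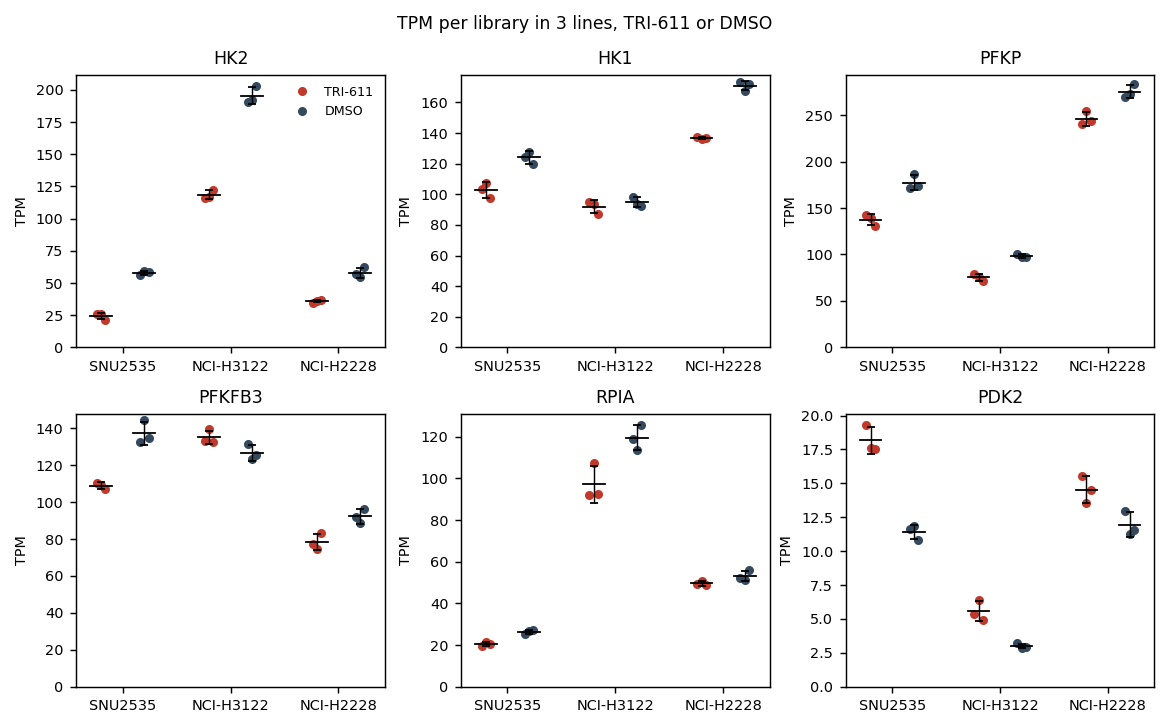
TPM of HK2, HK1, PFKP, PFKFB3, RPIA and PDK2 in every library (points), by line and treatment, with the group mean and SD (n = 3). TRI-611 points lie below DMSO points for HK2 and PFKP in all 3 lines, and above them for PDK2.

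From aldolase to pyruvate kinase, transcripts were abundant and moved little. GAPDH, the step that yields NADH, averaged 7527 ± 647 TPM with TRI-611 and 6779 ± 156 TPM with DMSO in SNU2535 (SD, n = 3 each). It averaged 6213 ± 372 TPM with TRI-611 and 6194 ± 123 TPM with DMSO in NCI-H3122. It averaged 5858 ± 172 TPM with TRI-611 and 6174 ± 200.3 TPM with DMSO in NCI-H2228. GAPDH was not called in any line, and neither were GPI, ALDOA, ALDOC, PGK1, ENO1 and ENO2. In SNU2535 the first TRI-611 replicate stood apart: GAPDH had 8258, 7298 and 7026 TPM over the 3 TRI-611 replicates, ALDOA 2143, 1805 and 1749, PGK1 705, 581 and 542 and ALDOC 46.0, 28.0 and 22.7. Calls by limma in SNU2535 were gained for ENO2 without TRI-611 replicate 1 (adjusted p = 0.0313) and for GAPDH without TRI-611 replicate 3 (adjusted p = 0.0413).

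TPI1, which interconverts the triose phosphates, was called higher in SNU2535, averaging 1220.1 ± 53.2 TPM with TRI-611 and 1104 ± 40.0 TPM with DMSO (0.14 ± 0.041, adjusted p = 0.0352 by limma). PKM, the pyruvate kinase of most tissues, was as well, averaging 1658 ± 72.4 TPM with TRI-611 and 1508 ± 22.2 TPM with DMSO (0.14 ± 0.036, adjusted p = 0.0264 by limma). Neither call held with the replicate block, at limma adjusted p of 0.0929 and 0.0614. TPI1 was also lost without TRI-611 replicate 1 or 2 or DMSO replicate 1 or 2 (adjusted p of 0.0787 to 0.112), and PKM without TRI-611 replicate 2 or DMSO replicate 1 or 3 (adjusted p of 0.0586 to 0.0823), by limma. By the same adjusted p of limma, TPI1 was lost with no filter (0.0818) and under quantile normalization (0.244), and PKM with no filter (0.0561). PGAM1, which moves the phosphate within phosphoglycerate, had 334, 323 and 302 TPM with TRI-611, against 361, 361 and 353 TPM with DMSO in NCI-H3122, without overlap (-0.17 ± 0.042, adjusted p = 0.0178 by limma). That call was lost without DMSO replicate 1 or 2 (adjusted p of 0.0541 to 0.0625) by limma, and PGAM1 was not called elsewhere. Pseudogenes named after 13 of the 31 genes number 104, of which 62 belong to GAPDH, and how shared reads were counted is unstated. Their summed TPM was at most 5.05% of the parent gene, for LDHA.

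LDHA encodes the lactate dehydrogenase subunit that favours lactate production, and LDHB the subunit that favours the reverse. LDHA had 746, 720.4 and 677 TPM with TRI-611, against 801, 776 and 766 TPM with DMSO in NCI-H3122 (-0.13 ± 0.042, adjusted p = 0.0460 by limma). NCI-H2228 had 785, 769 and 778 TPM with TRI-611, against 873, 843 and 829 TPM with DMSO (-0.13 ± 0.030, adjusted p = 0.0319 by limma). SNU2535 had 1489, 1421 and 1347 TPM with TRI-611, against 1414, 1382 and 1389 TPM with DMSO (limma adjusted p = 0.704). The groups overlapped in SNU2535 only. By limma the call in NCI-H3122 was lost without TRI-611 replicate 2 or 3 or DMSO replicate 1, 2 or 3 (adjusted p of 0.0652 to 0.137), and also with no filter (0.0999) and under quantile normalization (0.0647). By limma the call in NCI-H2228 was lost without TRI-611 replicate 1, 2 or 3 or DMSO replicate 1 or 2 (adjusted p of 0.0793 to 0.0926), and with the replicate block (adjusted p = 0.0502). The adjusted p of limma also ended that call with no filter (0.0616), under quantile normalization (0.0825) and without mitochondrially encoded genes (0.0586).

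LDHB was not called in any line. LDHA made up 66.8% ± 1.41 with TRI-611 and 66.3% ± 0.510 with DMSO of the TPM of both in SNU2535 (SD, n = 3 each). It made up 34.5% ± 0.850 with TRI-611 and 35.9% ± 0.380 with DMSO in NCI-H3122. It made up 47.7% ± 0.735 with TRI-611 and 48.7% ± 0.366 with DMSO in NCI-H2228. LDHA was the more abundant subunit transcript only in SNU2535, with either treatment.

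The pyruvate dehydrogenase kinases inactivate pyruvate dehydrogenase and so hold pyruvate back from oxidation. PDK2 (chromosome 17, 50094737 to 50112152, plus strand) had 19.3, 17.6 and 17.6 TPM with TRI-611, against 11.6, 11.9 and 10.8 TPM with DMSO in SNU2535 (0.62 ± 0.062, adjusted p = 0.000278 by limma). NCI-H3122 had 5.36, 6.38 and 4.96 TPM with TRI-611, against 3.20, 2.85 and 2.96 TPM with DMSO (0.71 ± 0.11, adjusted p = 0.00174 by limma). NCI-H2228 had 15.6, 13.5 and 14.5 TPM with TRI-611, against 13.0, 11.3 and 11.6 TPM with DMSO and was not called (0.26 ± 0.077, adjusted p = 0.0660 by limma). All TRI-611 libraries lay above all DMSO libraries of their line, at 159%, 185% and 122% of the DMSO mean. The calls in SNU2535 and NCI-H3122 held under all 14 settings, and NCI-H2228 was called with the replicate block (limma adjusted p = 0.0397).

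PDK3 was called higher in NCI-H3122, with 12.3, 13.4 and 12.6 TPM with TRI-611, against 11.1, 9.61 and 10.5 TPM with DMSO (0.28 ± 0.070, adjusted p = 0.0188 by limma). The call ended with the replicate block (limma adjusted p = 0.0519) and without TRI-611 replicate 2 or DMSO replicate 2 or 3 (adjusted p of 0.0522 to 0.0622). PDK3 averaged 9.35 ± 0.574 TPM with TRI-611 and 8.10 ± 1.29 TPM with DMSO in SNU2535, not called. It averaged 15.3 ± 0.812 TPM with TRI-611 and 14.0 ± 1.04 TPM with DMSO in NCI-H2228, not called. PDK1, a target of HIF-1, was not called in any line, and neither were PDHA1 and PDHB, which encode subunits of the enzyme that these kinases act on. An antisense transcript, AC078883.1, overlaps PDK1 over 1224 bases.

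PDK2 made up 59.0% ± 1.50 with TRI-611 and 49.3% ± 2.97 with DMSO of the TPM of PDK1, PDK2 and PDK3 in SNU2535 (SD, n = 3 each). It made up 26.0% ± 1.38 with TRI-611 and 18.4% ± 0.143 with DMSO in NCI-H3122, again without overlap. In NCI-H2228 the shares overlapped, at 39.5% ± 2.46 with TRI-611 and 35.3% ± 2.70 with DMSO.

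**Figure D3:**
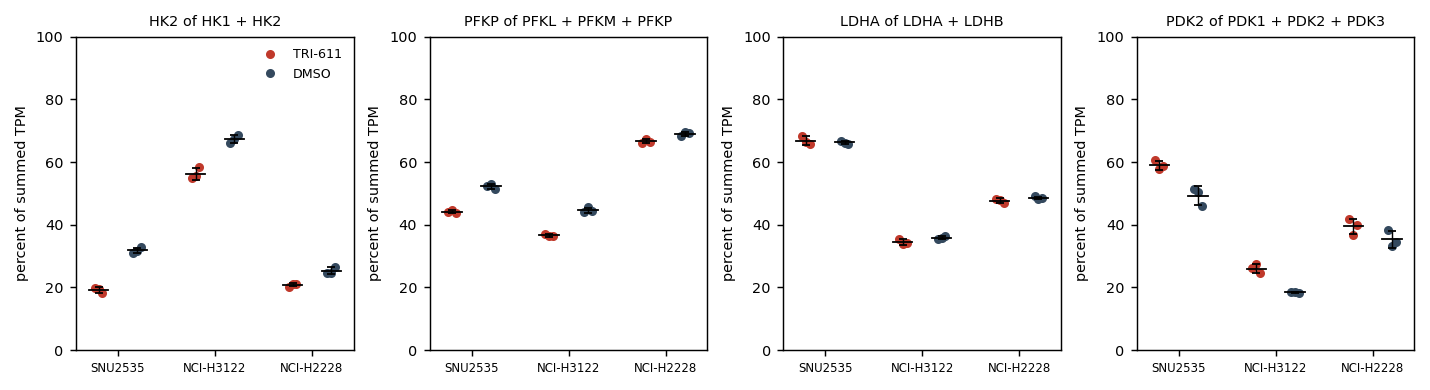
Share of each family's summed TPM (percent) held by HK2, PFKP, LDHA and PDK2 in every library, by line and treatment, with the group mean and SD (n = 3). HK2 and PFKP shares are lower with TRI-611 in all 3 lines, and HK2 exceeds HK1 only in NCI-H3122.

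In the pentose phosphate pathway, PGLS and PGD belong to the oxidative branch that makes NADPH, and RPIA, TKT and TALDO1 to the non-oxidative branch that exchanges sugars with glycolysis. RPIA, which makes ribose 5-phosphate, had 19.4, 21.6 and 20.6 TPM with TRI-611, against 25.3, 26.9 and 27.1 TPM with DMSO in SNU2535 (-0.35 ± 0.056, adjusted p = 0.00264 by limma). NCI-H3122 had 91.8, 107 and 92.4 TPM with TRI-611, against 119, 114 and 126 TPM with DMSO (-0.30 ± 0.068, adjusted p = 0.0116 by limma). NCI-H2228 had 49.2, 51.0 and 48.6 TPM with TRI-611, against 52.3, 51.3 and 56.0 TPM with DMSO and was not called (-0.10 ± 0.047, adjusted p = 0.231 by limma). The calls in SNU2535 and NCI-H3122 held under all 14 settings, and the groups did not overlap in any line.

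TKT, the transketolase, was higher in the lines where RPIA fell. It had 519.8, 487 and 499 TPM with TRI-611, against 431, 447 and 464 TPM with DMSO in SNU2535 (0.17 ± 0.039, adjusted p = 0.0150 by limma). NCI-H3122 had 373, 377 and 354 TPM with TRI-611, against 341, 328 and 329 TPM with DMSO (0.14 ± 0.036, adjusted p = 0.0175 by limma). Neither pair of groups overlapped. NCI-H2228 averaged 306 ± 7.47 TPM with TRI-611 and 311 ± 9.01 TPM with DMSO (limma adjusted p = 0.714). By limma the call in SNU2535 was lost without DMSO replicate 1 (adjusted p = 0.0506). By limma the call in NCI-H3122 was lost without TRI-611 replicate 2 or DMSO replicate 2 or 3 (adjusted p of 0.0561 to 0.0722), and also under median-ratio scaling (0.0949).

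PGD, the last enzyme of the oxidative branch, had 159, 160.1 and 157 TPM with TRI-611, against 146, 144 and 144 TPM with DMSO in NCI-H3122 (0.13 ± 0.030, adjusted p = 0.0112 by limma). PGLS, the lactonase before it, had 38.8, 40.9 and 37.8 TPM with TRI-611, against 33.7, 34.1 and 36.0 TPM with DMSO there (0.18 ± 0.048, adjusted p = 0.0260 by limma). The groups did not overlap for either gene, and neither was called in SNU2535 or NCI-H2228. With the replicate block both calls ended, at limma adjusted p of 0.0513 for PGD and 0.0698 for PGLS. By limma PGD was also lost without DMSO replicate 3 (adjusted p = 0.0561), and PGLS without TRI-611 replicate 2 or DMSO replicate 1 or 2 (adjusted p of 0.0765 to 0.0817). Of the other settings, PGD was lost under median-ratio scaling (0.108), and PGLS with no filter (0.0620) and under median-ratio scaling (0.0913), by the adjusted p of limma.

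TALDO1, and PGM1, which links glucose 6-phosphate to glycogen, were not called in any line. The summed TPM of PGLS, PGD, TKT, TALDO1 and RPIA was 1635 ± 12.7 with TRI-611 and 1547 ± 28.8 with DMSO in SNU2535 (SD, n = 3 each). The sum was 1028 ± 39.3 with TRI-611 and 984 ± 15.8 with DMSO in NCI-H3122. It was 2088 ± 9.75 with TRI-611 and 2119 ± 57.3 with DMSO in NCI-H2228.

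Responses of pairs of lines were set against each other by interaction contrasts, which share libraries. Between SNU2535 and NCI-H3122, 6 of the 31 genes differed, against a background of 20.1% of 13788 genes. Between SNU2535 and NCI-H2228 6 differed, against 10.6% of 14640 genes, and between NCI-H3122 and NCI-H2228 7 differed, against 14.3% of 13878 genes. By direction, 2 were higher (background 3.71%) and 4 lower (16.4%) for SNU2535 minus NCI-H3122, 4 higher (2.74%) and 2 lower (7.83%) for SNU2535 minus NCI-H2228, and 6 higher (8.99%) and 1 lower (5.34%) for NCI-H3122 minus NCI-H2228. Under median-ratio scaling these splits were 5 and 2, 4 and 1, and 4 and 2, and under quantile normalization the second was 2 and 3. Over all genes, median-ratio scaling gave 1578 and 1242 of 13788, 700 and 873 of 14640, and 959 and 1218 of 13878. For the second pair quantile normalization gave 574 and 880 of 14640.

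The number of genes whose response differed between SNU2535 and NCI-H2228 depended on single libraries. It was 1 with no filter, 1 without DMSO replicate 1 of NCI-H2228, 2 without TRI-611 replicate 2 or 3 of NCI-H2228, and 3 without TRI-611 replicate 1 or DMSO replicate 1 or 2 of SNU2535. Between SNU2535 and NCI-H3122 it was 3 without DMSO replicate 1 of SNU2535 or without TRI-611 replicate 2 or DMSO replicate 2 of NCI-H3122. Between NCI-H3122 and NCI-H2228 it was 4 with no filter and 4 without TRI-611 replicate 2 or DMSO replicate 1 of NCI-H2228.

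HK2 fell more in SNU2535 than in NCI-H3122 (difference of log2 changes -0.51 ± 0.083, adjusted p = 0.00116 by limma) and than in NCI-H2228 (-0.55 ± 0.093, adjusted p = 0.00236 by limma). The response of PFKFB3 differed by -0.42 ± 0.056 for SNU2535 minus NCI-H3122 (limma adjusted p = 0.000262). For NCI-H3122 minus NCI-H2228 it differed by 0.33 ± 0.066 (limma adjusted p = 0.00504). HK1 differed between NCI-H3122 and NCI-H2228 by 0.28 ± 0.055 (limma adjusted p = 0.00468), and PGLS by 0.28 ± 0.068 (limma adjusted p = 0.0138). PKM differed between SNU2535 and NCI-H3122 by 0.22 ± 0.055 (limma adjusted p = 0.0128). These 7 differences were called under every setting tried, and the other 12 each lost their call under at least 1 setting.

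A further list of 50 genes covers the rest of these pathways. This list and those of regulators, HIF targets and NRF2 targets were also chosen with earlier results of these data known. Their shares against all genes are therefore description only. In SNU2535, 36 were tested, with 8 higher (22.2%), 8 lower (22.2%) and a median log2 change of 0.0075, against -0.02 over all tested genes. In NCI-H3122, 35 were tested, with 11 higher (31.4%), 7 lower (20.0%) and a median of 0.07, against 0.05. In NCI-H2228, 38 were tested, with 1 higher (2.63%), 8 lower (21.1%) and a median of -0.02, against 0.0094. Of all tested genes, 10.7% were higher and 18.1% lower for SNU2535, 20.6% and 13.4% for NCI-H3122, and 4.80% and 6.40% for NCI-H2228. PDK4, the kinase known for its induction in fasting, rose in all 3 lines and was low in each. It averaged 3.15 ± 0.855 TPM with TRI-611 and 0.701 ± 0.0477 TPM with DMSO in SNU2535 (SD, n = 3 each; 1.26 ± 0.18, adjusted p = 0.00173 by limma). It averaged 2.01 ± 0.296 TPM with TRI-611 and 1.06 ± 0.134 TPM with DMSO in NCI-H3122 (0.55 ± 0.15, adjusted p = 0.0227 by limma). NCI-H2228 averaged 3.71 ± 0.567 TPM with TRI-611 and 0.976 ± 0.140 TPM with DMSO (1.25 ± 0.15, adjusted p = 0.00139 by limma). The DMSO means of PDK4 in SNU2535 and NCI-H2228 lay under the filter of 1 TPM. In SNU2535 PDK4 entered the test only through its TRI-611 libraries, the group where it was high. The call in NCI-H3122 was lost under quantile normalization (limma adjusted p = 0.0544) and without TRI-611 replicate 1 or 2 or DMSO replicate 1 or 3 (adjusted p of 0.0542 to 0.0752).

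PDP1 and PDP2, the phosphatases that reactivate pyruvate dehydrogenase, fell in all 3 lines. PDP1 averaged 19.9 ± 0.325 TPM with TRI-611 and 42.6 ± 0.881 TPM with DMSO in SNU2535 (-1.06 on the log2 scale). It averaged 14.7 ± 0.747 TPM with TRI-611 and 21.2 ± 1.67 TPM with DMSO in NCI-H3122 (-0.50). NCI-H2228 averaged 32.3 ± 2.69 TPM with TRI-611 and 42.2 ± 1.43 TPM with DMSO (-0.38). PDP2 followed at lower levels, with log2 changes of -0.81, -0.62 and -0.33, and its call in NCI-H2228 was lost without TRI-611 replicate 2 or 3 or DMSO replicate 1 (adjusted p of 0.0537 to 0.0636) by limma. PDPR, the regulatory subunit of the phosphatase, rose in SNU2535 (0.36) and NCI-H3122 (0.54).

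TIGAR, a phosphatase that lowers fructose 2,6-bisphosphate, fell in all 3 lines. It averaged 23.6 ± 1.84 TPM with TRI-611 and 46.3 ± 1.90 TPM with DMSO in SNU2535 (SD, n = 3 each; -0.94 on the log2 scale). It averaged 19.8 ± 1.02 TPM with TRI-611 and 35.9 ± 2.37 TPM with DMSO in NCI-H3122 (-0.83). NCI-H2228 averaged 12.8 ± 0.384 TPM with TRI-611 and 19.9 ± 1.66 TPM with DMSO (-0.60). SLC16A3, the lactate exporter MCT4, also fell in all 3 lines, with log2 changes of -0.51, -0.35 and -0.20. Its call in NCI-H2228 ended with the replicate block (limma adjusted p = 0.0510) and without TRI-611 replicate 1 or 3 or DMSO replicate 2 or 3 (adjusted p of 0.0652 to 0.0831). By limma it also ended with no filter (0.0766), under quantile normalization (0.0556) and without mitochondrially encoded genes.

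SLC2A1, the main glucose transporter, fell in NCI-H3122 and NCI-H2228. It averaged 299 ± 16.1 TPM with TRI-611 and 396 ± 4.68 TPM with DMSO in NCI-H3122 (-0.41 ± 0.043, adjusted p = 0.000316 by limma). NCI-H2228 averaged 259 ± 3.22 TPM with TRI-611 and 309 ± 10.7 TPM with DMSO (-0.25 ± 0.035, adjusted p = 0.00289 by limma). SNU2535 averaged 246 ± 5.76 TPM with TRI-611 and 244 ± 11.4 TPM with DMSO (limma adjusted p = 0.826). SLC2A3, a high-affinity glucose transporter, fell in NCI-H2228 (-0.79) and was under the filter in the other lines. PGM2L1 rose in SNU2535 (0.50) and NCI-H3122 (0.92), as did SHPK (0.26 and 0.57), while BPGM fell in both (-0.24 and -0.49). In SNU2535 the calls of SHPK and BPGM were not stable. SHPK was lost with the replicate block (limma adjusted p = 0.0502) and without TRI-611 replicate 2 or 3 or DMSO replicate 1, 2 or 3 (adjusted p of 0.0512 to 0.0692). BPGM was lost with no filter (0.0747), under median-ratio scaling (0.0651), under quantile normalization (0.116) and in the fit of all 18 libraries (0.0931) by the adjusted p of limma, and without TRI-611 replicate 2 or 3 or DMSO replicate 1 or 3 (adjusted p of 0.0657 to 0.0950). PGP fell in SNU2535 (-0.42) and NCI-H2228 (-0.26).

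Of 14 regulators of these pathways, 3 were higher and 5 lower of 13 tested in SNU2535, 6 higher and 5 lower of 13 in NCI-H3122, and 2 higher and 6 lower of 12 in NCI-H2228. The shares higher were 23.1%, 46.2% and 16.7%, against 10.7%, 20.6% and 4.80% of all genes. Those lower were 38.5% for SNU2535, against 18.1%, and 38.5% for NCI-H3122, against 13.4%, while the 6 of 12 in NCI-H2228 stand against 6.40%. MYC fell in all 3 lines. It averaged 67.6 ± 2.08 TPM with TRI-611 and 203 ± 13.4 TPM with DMSO in SNU2535 (SD, n = 3 each; -1.57 on the log2 scale). It averaged 271 ± 5.67 TPM with TRI-611 and 421 ± 5.40 TPM with DMSO in NCI-H3122 (-0.64). NCI-H2228 averaged 57.5 ± 1.13 TPM with TRI-611 and 119.6 ± 5.78 TPM with DMSO (-1.04). HIF1A fell (-0.92, -0.46 and -0.47), as did ARRDC4 (-0.78, -0.73 and -0.64), while TXNIP, which limits glucose uptake, rose (0.32, 0.18 and 0.47). The call of TXNIP in NCI-H3122 was lost with no filter (0.0530) and under median-ratio scaling (0.0733) by the adjusted p of limma, and without TRI-611 replicate 2 or DMSO replicate 2 or 3 (adjusted p of 0.0551 to 0.0742).

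Of 16 other HIF targets, 4 were higher and 4 lower of 15 tested in SNU2535, 5 and 3 of 14 in NCI-H3122, and 2 and 1 of 16 in NCI-H2228. The shares higher were 26.7%, 35.7% and 12.5%, against 10.7%, 20.6% and 4.80% of all genes, and the shares lower 26.7%, 21.4% and 6.25%, against 18.1%, 13.4% and 6.40%. VEGFA, the angiogenic growth factor, fell in all 3 lines (-1.20, -1.75 and -0.94), while KDM3A, a histone demethylase, rose (0.635, 0.87 and 0.36). Of 15 NRF2 targets, 2 were higher and 5 lower of 15 tested in SNU2535, 6 and 3 of 13 in NCI-H3122, and 3 and 2 of 15 in NCI-H2228. Their shares higher were 13.3%, 46.2% and 20.0%, and lower 33.3%, 23.1% and 13.3%, against the same shares of all genes. OSGIN1 fell in all 3 lines (-1.002, -0.92 and -0.63), and SRXN1 (-0.60) and GCLM (-0.36) fell in SNU2535. Other NRF2 targets rose in the main fit: AKR1C2 in NCI-H3122 (1.12), HMOX1 in NCI-H3122 (0.76) and NCI-H2228 (0.53), and ABCC2 in NCI-H2228 (0.37).

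The lines themselves differed for most of the 31 genes. In DMSO libraries, 29 differed between SNU2535 and NCI-H3122, against a background of 76.1% of 18233 genes, 24 between SNU2535 and NCI-H2228, against 75.0%, and 29 between NCI-H3122 and NCI-H2228, against 79.3%. Of these, 22 were higher (background 45.4%) and 7 lower (30.7%) in SNU2535 than in NCI-H3122, 10 higher (32.4%) and 14 lower (42.6%) in SNU2535 than in NCI-H2228, and 8 higher (30.0%) and 21 lower (49.3%) in NCI-H3122 than in NCI-H2228. Under median-ratio scaling the splits were 17 and 10, 15 and 14, and 12 and 15. Of all 18233 genes, they were then 7161 and 6831, 6545 and 7053, and 7117 and 7395. That scaling set the median difference over all tested genes at 0.01 in place of 0.16 for SNU2535 minus NCI-H3122, and at -0.01 in place of -0.25 for NCI-H3122 minus NCI-H2228. The DMSO mean was highest in SNU2535 for 12 of the 31 genes, in NCI-H3122 for 4 and in NCI-H2228 for 15. It was lowest in SNU2535 for 8, in NCI-H3122 for 17 and in NCI-H2228 for 6. These orders were not counted over all genes, more of which were also lower than higher in NCI-H3122 against either other line. ALDOC was not called in any pair.

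**Figure D4:**
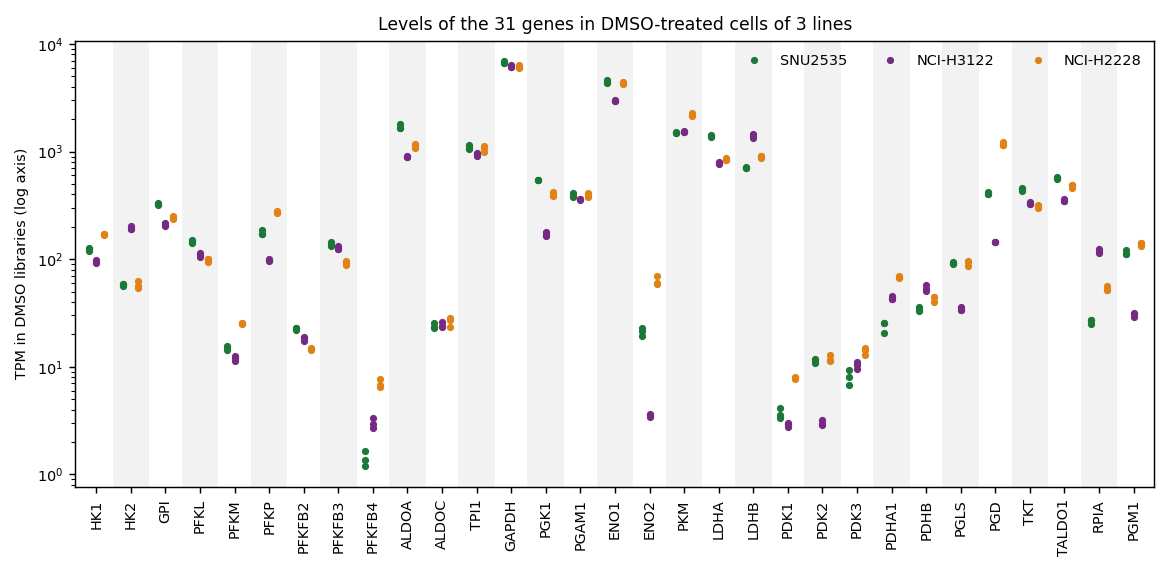
TPM of the 31 genes (log axis) in the 9 DMSO libraries, coloured by line. Means span from PFKFB4, at 1.39 TPM in SNU2535, to GAPDH, at 6779 TPM in the same line, and the lines lie furthest apart for ENO2 and PGD.

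The 8 genes with the widest range between lines were ENO2, PGD, PGM1, RPIA, PFKFB4, HK2, PDK2 and PGK1. ENO2, the neuronal enolase, had 21.4, 22.7 and 19.5 TPM in DMSO libraries of SNU2535, 3.58, 3.42 and 3.66 TPM in those of NCI-H3122 and 59.1, 59.5 and 69.9 TPM in those of NCI-H2228. The lines lay apart, and the highest mean was 17.7 times the lowest. ENO1, the common enolase, averaged 4464 ± 156 TPM in SNU2535, 2991 ± 45.6 in NCI-H3122 and 4358 ± 97.3 in NCI-H2228 (SD, n = 3 each), overlapping between SNU2535 and NCI-H2228.

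PGD had 408, 425 and 407 TPM in DMSO libraries of SNU2535, 146, 144 and 144 TPM in those of NCI-H3122 and 1221, 1163 and 1163 TPM in those of NCI-H2228. Its order was NCI-H2228 over SNU2535 over NCI-H3122 with no overlap, and the highest mean was 8.18 times the lowest. PGLS averaged 92.0 ± 1.99 TPM in SNU2535, 34.6 ± 1.23 in NCI-H3122 and 92.1 ± 4.27 in NCI-H2228 (SD, n = 3 each). NCI-H3122 was thus the lowest line for PGD and PGLS. It was lowest for TALDO1 too, at means of 568 TPM in SNU2535, 352 in NCI-H3122 and 480 in NCI-H2228. TKT was instead lowest in NCI-H2228, at 447 TPM in SNU2535, 333 in NCI-H3122 and 311 in NCI-H2228. RPIA was highest in NCI-H3122. Of the 15 NRF2 targets, 13 were higher and 2 lower in SNU2535 than in NCI-H3122 (median log2 difference 3.65, against 0.16 over all tested genes), where 45.4% of all genes were higher and 30.7% lower. In SNU2535 against NCI-H2228, 2 were higher and 12 lower (median -0.77, against -0.11), with 32.4% and 42.6% of all genes. All 15 were lower in NCI-H3122 than in NCI-H2228 (median -4.02, against -0.25), with 49.3% of all genes lower. The part of NRF2 in the levels of the pentose phosphate genes was not tested.

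RPIA and HK2 were highest in NCI-H3122. RPIA had 25.3, 26.9 and 27.1 TPM in DMSO libraries of SNU2535, 119, 114 and 126 TPM in those of NCI-H3122 and 52.3, 51.3 and 56.0 TPM in those of NCI-H2228. HK2 averaged 58.0 ± 1.50 TPM in SNU2535, 195 ± 6.53 in NCI-H3122 and 57.9 ± 4.00 in NCI-H2228 (SD, n = 3 each), and SNU2535 and NCI-H2228 overlapped. HK1 was lowest in NCI-H3122, at 94.8 ± 3.20 TPM, with 124 ± 4.07 TPM in SNU2535 and 171 ± 2.87 TPM in NCI-H2228.

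PGM1, PGK1 and PDK2 were lowest in NCI-H3122, without overlap with either other line. PGM1 had 113, 121 and 112 TPM in DMSO libraries of SNU2535, 31.4, 30.8 and 28.8 TPM in those of NCI-H3122 and 141, 131 and 141 TPM in those of NCI-H2228. PGK1, the first step to yield ATP, had 541, 541 and 542 TPM in DMSO libraries of SNU2535, 179.7, 169.5 and 165 TPM in those of NCI-H3122 and 419, 387 and 394 TPM in those of NCI-H2228. The highest mean was 4.55 times the lowest for PGM1, 3.15 times for PGK1 and 3.98 times for PDK2. PDK2 had 11.6, 11.9 and 10.8 TPM in DMSO libraries of SNU2535, 3.20, 2.85 and 2.96 TPM in those of NCI-H3122 and 13.0, 11.3 and 11.6 TPM in those of NCI-H2228, and the first and last of these overlapped. PFKFB4, which makes the same activator as PFKFB3, was low everywhere. It had 1.35, 1.65 and 1.19 TPM in SNU2535, 3.34, 2.68 and 2.91 TPM in NCI-H3122 and 6.47, 6.78 and 7.78 TPM in NCI-H2228, without overlap.

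LDHA was highest in SNU2535 and LDHB in NCI-H3122. LDHA averaged 1395 ± 16.8 TPM in SNU2535, 781 ± 17.8 in NCI-H3122 and 848 ± 22.4 in NCI-H2228 (SD, n = 3 each). LDHB averaged 709.6 ± 9.20 TPM in SNU2535, 1393 ± 53.3 in NCI-H3122 and 895 ± 16.9 in NCI-H2228. Neither gene's libraries overlapped between lines. The difference of LDHA for NCI-H3122 minus NCI-H2228, -0.12 on the log2 scale, turned to 0.18 under median-ratio scaling.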

How the data were processed

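The authors deposited TPM values for 57500 genes in 18 libraries. Tools listed in the submitters' processing notes are fastp (0.23.1) for reads, STAR (2.5.2b), featureCounts from Subread (1.5.2) and DESeq2, with the build GRCh38, and per the labels' protocols the kit adds unique molecular identifiers. How TPM were derived, the annotation, strand setting and use of identifiers are unstated. TPM hold no read totals, so depth is unknown and no counting interval can be given.

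Deposited TPM were taken as log2(TPM + 1), which understates changes of low genes. Genes with TPM of 1 or more in at least 3 libraries entered limma (3.58.1, R 4.3.3; robust empirical Bayes with a trend, two-sided, Benjamini-Hochberg): 6 libraries per line, 12 per pair of lines for differences in response, and 9 for DMSO levels. These steps were tested on simulated data.

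The members and lists were chosen with earlier results of these data known. Library values are given for the 12 members called in at least 1 line whose mean log2 change over the 3 lines, signs kept, was largest in size and the 8 with the widest DMSO range. Up to 8 called genes of the rest of the pathway, and up to 3 of each further list, were eligible for naming per line, by size of change.

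The labels give a batch equal to the replicate number, which pairs samples. Deviations of same-numbered samples correlated at r = -0.0228, 0.0437 and 0.00966 for SNU2535. For NCI-H3122 r was -0.0865, -0.0290 and 0.0152. For NCI-H2228 r was 0.101, 0.00343 and 0.0830. Alternatives were the replicate block, pseudocounts of 0.1 and 5, no filter, median-ratio scaling, quantile normalization, 1 fit of all 18 libraries and leaving out each library. A fit without mitochondrially encoded genes was added after seeing the data. GENCODE release 29 gave loci, for 56898 IDs, and RefSeq (GRCh38.p14) gave promoters.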

Additional observations from a re-analysis of the deposited data

Results flagged for a closer look

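For 19 pairings of a gene with a pair of lines, the response to TRI-611 differed between the lines by the interaction contrast (limma adjusted p under 0.05 over all genes tested). Values are differences of log2 changes, first line minus second, over 12 libraries each. For SNU2535 minus NCI-H3122 they were -0.22 for HK1, -0.51 for HK2, -0.42 for PFKFB3, 0.17 for TPI1, 0.22 for PKM and -0.13 for PGD. For SNU2535 minus NCI-H2228 they were -0.55 for HK2, 0.27 for TPI1, 0.21 for PKM, 0.36 for PDK2, 0.19 for TKT and -0.25 for RPIA. For NCI-H3122 minus NCI-H2228 they were 0.28 for HK1, -0.22 for PFKP, 0.33 for PFKFB3, 0.45 for PDK2, 0.28 for PGLS, 0.16 for PGD and 0.17 for TKT. With the replicate block, TPI1 and PGD were no longer called between SNU2535 and NCI-H3122 (limma adjusted p = 0.0584 and 0.0605). Leaving out 1 library ended 11 of these calls, and the libraries are given by line, treatment and replicate number with the limma adjusted p. For SNU2535 minus NCI-H3122 they were, for HK1 without SNU2535 DMSO 1 or 2, SNU2535 TRI-611 1 or 3, NCI-H3122 DMSO 2 or 3, NCI-H3122 TRI-611 1 or 2 (0.0555 to 0.0781), for TPI1 without SNU2535 DMSO 1 or 2, SNU2535 TRI-611 1 or 2, NCI-H3122 DMSO 1 or 2, NCI-H3122 TRI-611 2 or 3 (0.0645 to 0.104) and for PGD without SNU2535 DMSO 1, 2 or 3, SNU2535 TRI-611 1 or 3, NCI-H3122 DMSO 1, 2 or 3, NCI-H3122 TRI-611 1 or 2 (0.0530 to 0.0958). For SNU2535 minus NCI-H2228 they were, for TPI1 without SNU2535 DMSO 1 or 2, SNU2535 TRI-611 1, NCI-H2228 DMSO 1 or 2, NCI-H2228 TRI-611 2 or 3 (0.0501 to 0.0698), for PKM without NCI-H2228 DMSO 1 (0.0510), for PDK2 without SNU2535 DMSO 1 or 3, SNU2535 TRI-611 1, NCI-H2228 DMSO 1, NCI-H2228 TRI-611 2 or 3 (0.0577 to 0.0874), for TKT without SNU2535 DMSO 1 or 2, SNU2535 TRI-611 1 or 3, NCI-H2228 DMSO 1 or 3, NCI-H2228 TRI-611 2 or 3 (0.0502 to 0.0857) and for RPIA without SNU2535 DMSO 2 or 3, SNU2535 TRI-611 1 or 3, NCI-H2228 DMSO 1 or 2, NCI-H2228 TRI-611 1, 2 or 3 (0.0600 to 0.0991). For NCI-H3122 minus NCI-H2228 they were, for PFKP without NCI-H3122 DMSO 1, NCI-H2228 DMSO 1 or 2, NCI-H2228 TRI-611 2 (0.0510 to 0.0575), for PDK2 without NCI-H3122 DMSO 2 or 3, NCI-H3122 TRI-611 2, NCI-H2228 DMSO 1, NCI-H2228 TRI-611 2 or 3 (0.0621 to 0.0862) and for TKT without NCI-H3122 DMSO 2 or 3, NCI-H3122 TRI-611 1 or 2, NCI-H2228 DMSO 1 or 3, NCI-H2228 TRI-611 2 or 3 (0.0542 to 0.0884).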

How the results depend on the processing

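Numbers are counts of the 31 genes called. Those higher in SNU2535 (4) numbered 2 with no filter and 2 with the replicate block. Over all genes they numbered 1245 of 32185 and 1409 of 16252. Those higher in NCI-H3122 (5) numbered 3 with the block, 2 under median-ratio scaling, 8 under quantile normalization and 8 without mitochondrially encoded genes. Of all 15311 genes in that line, 2513 were higher with the block, 2508 under median-ratio scaling and 2887 under quantile normalization. Without mitochondrially encoded genes 3839 of 15705 were higher. In NCI-H2228, 5 were lower, against 2 with no filter and 3 without mitochondrially encoded genes, and 0 higher, against 1 with the block, 1 in the fit of all 18 libraries and 1 without mitochondrially encoded genes. Over all genes in that line, 630 of 32396 were lower with no filter. With the block 782 of 16806 were higher, and 1219 of 16806 in the fit of all 18 libraries. Without mitochondrially encoded genes 1162 of 17143 were higher and 908 lower. With no filter, responses differed for 1 gene between SNU2535 and NCI-H2228 (6) and for 4 between NCI-H3122 and NCI-H2228 (7). Over all genes with no filter, 273 were higher and 760 lower of 36020, and 930 and 605 of 35750, for those pairs. Of the 31, leaving out 1 library gave 1 to 5 higher and 5 to 6 lower for SNU2535, 2 to 5 and 3 to 6 for NCI-H3122, and 0 and 2 to 3 for NCI-H2228. Differing responses numbered 3 to 6 for SNU2535 against NCI-H3122, 1 to 8 for SNU2535 against NCI-H2228 and 4 to 7 for the remaining pair. DMSO differences numbered 28 to 29, 24 to 25 and 28 to 29 for the same pairs. The lowest counts came without DMSO replicate 1 in SNU2535 (1 higher), TRI-611 replicate 1 in NCI-H2228 (2 lower) and, for responses, DMSO replicate 1 of NCI-H2228 (1). Over all genes, leaving out 1 library gave 1209 to 1479 higher and 2295 to 2628 lower for SNU2535. It gave 2251 to 2972 and 1566 to 1938 for NCI-H3122, and 444 to 928 and 695 to 831 for NCI-H2228.

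Directions turned as follows, on the log2 scale, for values called under either setting. Under median-ratio scaling, the response difference of PGD for SNU2535 minus NCI-H3122 was 0.0071. DMSO differences under it were -0.0835 (PFKFB3), -0.0699 (GAPDH) and -0.0617 (PGAM1) for that pair, 0.0977 (PGAM1) and 0.10 (PGLS) for SNU2535 minus NCI-H2228, and 0.0710 (GPI), 0.19 (ALDOC), 0.13 (TPI1), 0.16 (PGAM1) and 0.18 (LDHA) for NCI-H3122 minus NCI-H2228. Under quantile normalization, PKM had a response difference of 0.13 for NCI-H3122 minus NCI-H2228, and DMSO differences were 0.0904 (PKM) and -0.10 (PDK1) for SNU2535 minus NCI-H3122, and 0.20 (ALDOC), -0.43 (GAPDH) and 0.0038 (PDK3) for NCI-H3122 minus NCI-H2228. The cause was not tested. Of single-gene values under alternatives, 5511 kept their call, 239 lost it, 65 gained it and 17 turned, and a sign change with neither value called counts as kept. With the replicate block, further changed calls by limma were ALDOC in NCI-H3122 (gained, adjusted p = 0.0381), the responses of LDHA for SNU2535 against NCI-H3122 (0.0334) and against NCI-H2228 (0.0449) and of GAPDH against NCI-H2228 (0.0372), all gained, and PFKFB3 in DMSO libraries of SNU2535 against NCI-H3122 (lost, 0.0731).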
